A study of Mus musculus with 18 samples.

Results

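The genes described are 9 regulators of phosphoinositide 3-kinase (PI3K) signaling, Inpp4b, Inpp4a, Inpp5d, Pik3cd, Pik3cg, Pik3r1, Pik3ip1, Pik3ap1 and Akt1, of 54309 genes in the RNA-seq table of sorted liver type 1 lymphocytes. They were taken by gene symbol and chosen with Inpp4b in mind, which was selected on its level in the CD49a+ populations of these same libraries. All 9 were among the 13594 genes that passed the low-count filter. C57BL/6J female mice 8 to 10 weeks old received MC38 cells, a mouse colon adenocarcinoma line, into the spleen, and their livers were taken 20 days later. Live NKp46+ cells without the other lineage markers were sorted from pools of 6 to 8 samples, in 3 separate sorts, into 4 populations of 3 libraries each. Tissue free of metastasis (MFL) gave MFL NK cells (CD49a-CD49b+) and MFL ILC1 (CD49a+CD49b-), and liver metastasis (LM) gave LM CD49a- NK cells (CD49a-CD49b+) and LM CD49a+ NK cells (CD49a+CD49b+), whose titles read ILC1 but whose cell type label is used here. A second experiment sorted F4/80hi and F4/80int metastasis-associated macrophages (MAMs, CD45+CD11b+; the labels write high and low) from MC38 liver metastases of female mice, 3 libraries each, by the study's general protocol also 8 to 10 weeks old and 20 days after injection, in which all 9 genes were also measured among 13759. The strain of the MAM mice is not stated separately. All animals carried the tumor line, so no library comes from a tumor-free mouse. LM were digested with enzymes whereas MFL were mashed through a filter, so effects of site and of dissociation cannot be told apart. In sorted bulk samples fewer expressing cells and less RNA per cell cannot be told apart either.

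Class I PI3K makes the membrane lipid PIP3, which recruits AKT and other proteins and so promotes growth, survival and migration of lymphocytes. SHIP1, the product of Inpp5d, turns this lipid into PI(3,4)P2, which the 4-phosphatases INPP4A and INPP4B remove in turn. In leukocytes the catalytic subunits p110delta (Pik3cd) and p110gamma (Pik3cg) predominate, p85alpha (Pik3r1) stabilizes the former, and active AKT keeps FOXO transcription factors out of the nucleus.

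The results turn on the paralogs Inpp4b and Inpp4a, and the sequences before their starts are given to show how these differ. All 9 genes matched the RefSeq promoter table (GRCm38.p6), with 16 promoters. The 250 bases before the first listed start of each paralog were found at a single place on their chromosome in GRCm39, at chr8:82068941-82069190 on the plus strand for Inpp4b and at chr1:37338669-37338918 on the plus strand for Inpp4a. They are printed 5' to 3', with the T-box letters GGTGTGA in capitals where present.
Inpp4b: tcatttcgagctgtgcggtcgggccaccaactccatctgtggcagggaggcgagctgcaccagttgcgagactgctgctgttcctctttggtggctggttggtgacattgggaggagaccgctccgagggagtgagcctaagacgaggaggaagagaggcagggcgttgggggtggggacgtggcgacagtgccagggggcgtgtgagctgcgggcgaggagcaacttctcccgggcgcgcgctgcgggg
Inpp4a: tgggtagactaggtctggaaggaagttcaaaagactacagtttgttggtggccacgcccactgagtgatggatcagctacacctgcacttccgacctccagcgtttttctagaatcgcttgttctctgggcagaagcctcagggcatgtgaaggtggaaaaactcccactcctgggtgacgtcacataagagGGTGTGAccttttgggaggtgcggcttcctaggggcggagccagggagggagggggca
The Inpp4b stretch held 19 CpG dinucleotides, and 80.3% of the 32851 promoters held fewer. The Inpp4a stretch held 7, and 53.7% held fewer. The 3 listed Inpp4a promoters held 5 to 16, so the size of the contrast with Inpp4b depended on the promoter taken. On either strand, the T-box letters were found in both of the first 2 listed Inpp4a promoters, whose windows overlap, and in 3.33% of all promoters. The FOXO letters GTAAACA lay in a promoter of Pik3cg and of Akt1 and in 3.17% of all promoters. The RUNX letters TGTGGTT (4.4% of all promoters) and the ETS letters CCGGAAG (6.91%) were in none of the 16. A match is a description of these letters and not a binding site, and none of the 4 motifs was in the Inpp4b stretch.

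The sorted populations carried their surface markers as RNA. Itga1, which encodes CD49a, averaged 663 CPM (counts relative to library size after TMM scaling) in MFL ILC1, 134 in LM CD49a+ NK, 11.4 in LM CD49a- NK and 11.5 in MFL NK libraries, and Itga2, which encodes CD49b, 36.96, 129, 293 and 346 CPM in that order. Libraries held 8795721 to 14386834 estimated counts in the lymphocytes and 21278959 to 32267015 in the MAMs. The coefficient of variation between replicates, estimated by edgeR over all genes, was 0.517 in MFL NK, 0.657 in MFL ILC1, 1.25 in LM CD49a- NK and 1.09 in LM CD49a+ NK cells, so LM libraries gave less precise values. Differences are log2 fold changes of the first against the second group named, called at a Benjamini-Hochberg adjusted p under 0.1 over all tested genes of edgeR's quasi-likelihood test. The p-values measure only the spread between libraries, which for the lymphocytes are pooled sorts. Whether the MAM samples were pooled is not stated.

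Inpp4b (chr8:82069185-82854543 in GRCm39) was nearly silent in both CD49a- NK populations, intermediate in LM CD49a+ NK cells and highest in MFL ILC1. The MFL NK libraries had 0.245, 5.21 and 7.52 CPM, and the LM CD49a- NK libraries 0.788, 1.22 and 3.01 CPM. The LM CD49a+ NK libraries had 59.5, 80.8 and 107 CPM, and the MFL ILC1 libraries 421, 432 and 447 CPM. Each CD49a+ library was above each CD49a- library, and the 2 CD49a+ groups did not overlap. The lowest MFL NK value rested on 3 counts and the lowest ILC1 value on 4957. The mean of LM CD49a+ NK cells was 82.4 ± 23.8 CPM (SD, n = 3), 49.3 times that of LM CD49a- NK cells (1.67 ± 1.18 CPM) and 19.1 times that of MFL NK cells (4.33 ± 3.72 CPM), and MFL ILC1 (434 ± 13.2 CPM) had 100.2 times the MFL NK mean. Between the 2 CD49a+ populations the log2 fold change of LM CD49a+ NK cells against MFL ILC1 was -2.39, and it lay between -2.62 and -2.21 in the 18 alternatives (other tests, scaling, filters, fits and left-out libraries). As the gene was chosen for its levels in the CD49a+ populations, these differences are given without a test, as are the fitted log2 fold changes of 5.65, 4.24 and 6.64 against the CD49a- populations. Their size rested in part on single libraries of low counts. Without LM CD49a- NK replicate 1 the first was 6.37, and without MFL NK replicate 2 the others were 4.89 and 7.29.

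**Figure D1:**
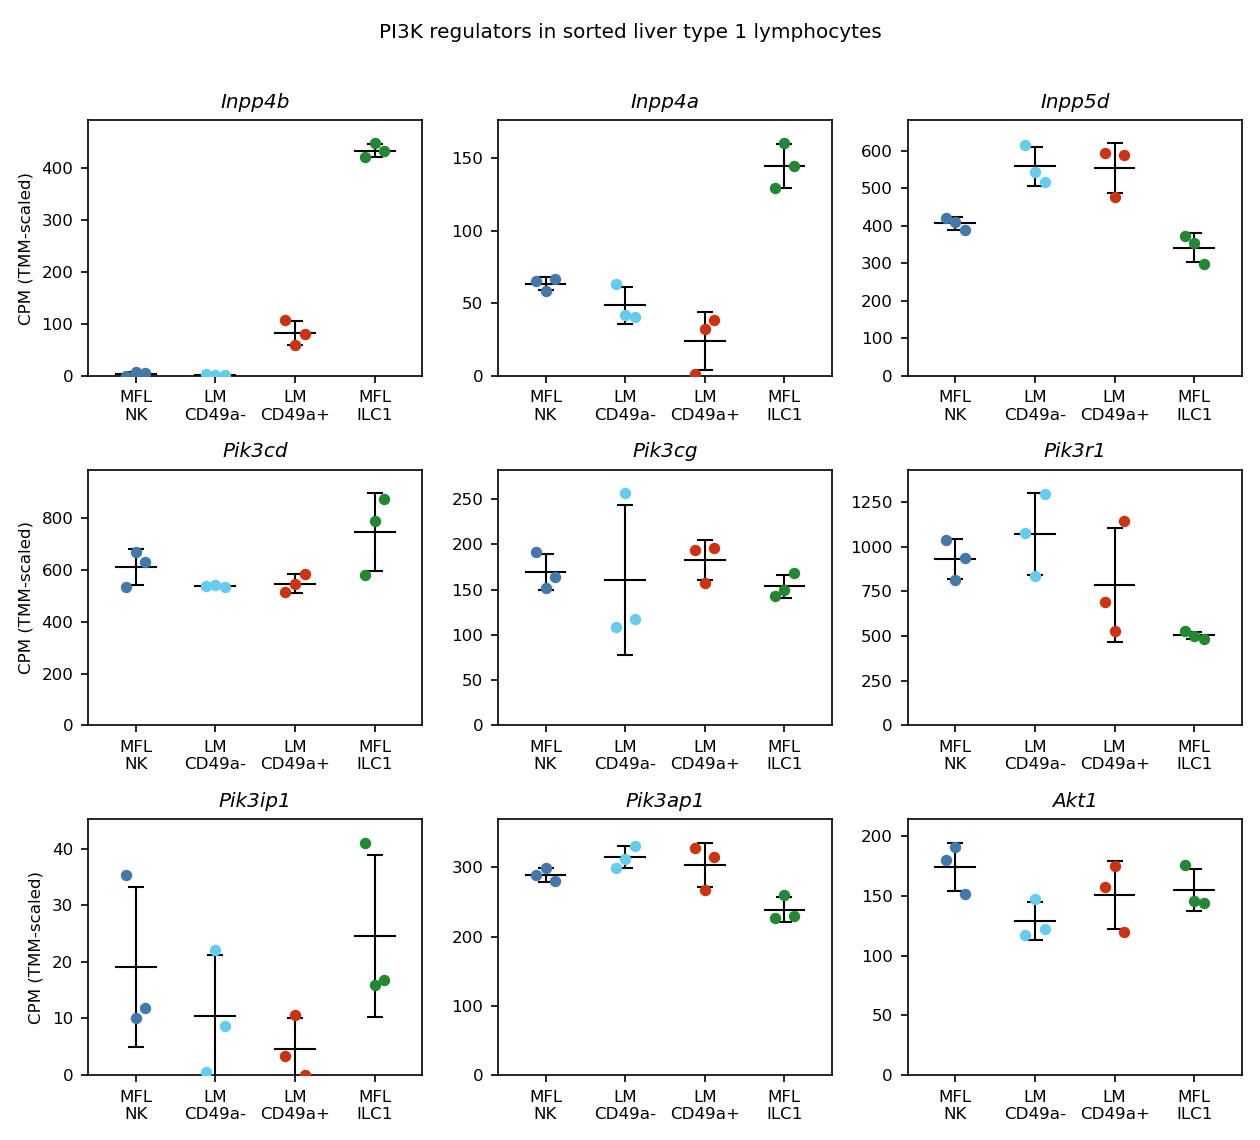
CPM of the 9 PI3K regulators (vertical axes, linear from 0, scaled per gene) in the 12 lymphocyte libraries by sorted population. Points are libraries, horizontal lines means and bars SD (n = 3); Inpp4b rises from at most 7.52 CPM in the CD49a- groups to at least 421 CPM in MFL ILC1, while Pik3cg and Akt1 overlap between most groups.

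The order of the 2 lowest populations could not be resolved. Inpp4b had a log2 fold change of -1.41 in LM CD49a- against MFL NK cells (SE 0.67, edgeR quasi-likelihood adjusted p = 0.743), with overlapping libraries, although without the low-count filter the adjusted p was 0.0223.

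The sum of the ILC1 markers rose with Inpp4b from the CD49a- to the CD49a+ populations, but not every gene of the list did. The summed level of 7 ILC1 genes was 1748 to 1796 CPM in MFL ILC1 libraries, 294 to 358 CPM in the LM CD49a+ NK population, 52.1 to 119 CPM in the LM CD49a- NK population, where Cxcr6 was at 0, and 40.8 to 60.4 CPM in the MFL NK population. The largest term was Itga1, which encodes the sorted marker CD49a. It gave 663 of a mean sum of 1773 CPM in MFL ILC1 and 134 of 333 CPM in LM CD49a+ NK cells. The order of the sum is therefore not independent of the sort. LM CD49a+ NK cells had 19.0% of the MFL ILC1 mean of Inpp4b, close to their 20.2% for Itga1, 18.0% for Il7r and 17.1% for Tnfsf10. For the other ILC1 genes the share was 1.52% (Zfp683), 2.11% (Cxcr6), 4.19% (Cd200r1) and 232% (Rora). Il7r and Rora overlapped between LM CD49a+ and LM CD49a- NK libraries, at 12.4 to 36.2 against 8.59 to 22.8 CPM and 14.7 to 161 against 2.99 to 50.5 CPM, where Inpp4b did not. Eomes, a T-box factor of NK cells, averaged 687 CPM in LM CD49a+ NK libraries against 20.3 CPM in MFL ILC1 libraries. The summed level of 8 NK cell genes was 4057 to 5004 CPM in the MFL NK population, 3446 to 4223 CPM in the LM CD49a- NK population, 1987 to 2560 CPM in the LM CD49a+ NK population and 1489 to 1791 CPM in MFL ILC1 libraries, and none of these genes was at 0 throughout a population. Of this list, Ncr1 (946 against 581 CPM) and Klrb1c (566 against 489 CPM) had higher means in MFL ILC1 than in LM CD49a+ NK cells, and all others, Eomes among them, had lower means. The part that a mixture of cells plays in the intermediate Inpp4b level was not tested. The T cell list also summed higher in MFL ILC1 (249 to 681 CPM) than in the other populations (4.98 to 35.7 CPM), where 2 to 4 of its 8 genes were at 0 in each group. In MFL ILC1, Cd3g alone gave 224 to 668 CPM, none of the other 7 genes exceeded 11.6 CPM, and Cd3e was at most 0.366 CPM. The sums of the tumor epithelium and B cell lists were also highest in MFL ILC1, followed by LM CD49a+ NK cells, but rested on few of their genes. The 6 epithelial genes summed to 59.3 to 95.2 CPM in MFL ILC1, 23.8 to 51.5 CPM in LM CD49a+ NK and 0 to 4.73 CPM in the CD49a- libraries, with Krt19 at 0 in every population. In the CD49a+ populations Cdh1 and Epcam gave almost all of it, with means of 55.8 and 17.7 CPM in MFL ILC1 and 28.1 and 5.28 CPM in LM CD49a+ NK cells. Krt18 and Cldn7 were at 0 in both, and averaged 0.826 and 0.105 CPM in LM CD49a- NK cells. The 8 B cell genes summed to 138 to 184 CPM in MFL ILC1, 117 to 121 CPM in LM CD49a+ NK and 15.9 to 83.2 CPM in the CD49a- libraries, with Pax5 at 0 in every population. Almost all of this sum was Ighm, with means of 153 CPM in MFL ILC1 and 119 CPM in LM CD49a+ NK cells. In these populations 4 and 6 of the 8 genes were at 0. The part of T cells, B cells and epithelium in these levels was not tested.

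Inpp4a (chr1:37338919-37449820), the paralog with the same activity, had its highest values in MFL ILC1, as Inpp4b did, but its lowest in LM CD49a+ NK cells. Its values were 58.2, 65.7 and 66.6 CPM for MFL NK, 40.7, 41.8 and 63.4 CPM for LM CD49a- NK, 1.26, 32.1 and 38.3 CPM for LM CD49a+ NK, and 129.6, 145 and 160.3 CPM for MFL ILC1 libraries. The 3 LM CD49a+ NK values lay below those of every other library, and those of MFL ILC1 above them. Inpp4a was lower in the LM CD49a+ NK population, at -2.60 against MFL ILC1 on the log2 scale (SE 0.67, adjusted p = 0.0502). The value of 1.26 CPM, from LM CD49a+ NK replicate 1, rested on 13 counts, and without it the difference was -2.04 (SE 0.33, adjusted p = 0.00264). Without MFL ILC1 replicate 1, 2 or 3 the adjusted p was 0.120, 0.120 and 0.106, and in a fit of these 2 groups alone 0.167.

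The remaining Inpp4a differences did not pass edgeR's test in the main fit of all 12 libraries. MFL ILC1 were at 1.19 against MFL NK cells (SE 0.64, adjusted p = 0.766), and 4 of 18 alternatives passed. These were limma-voom (1.32, adjusted p = 6.73e-06), the fit of these 2 groups alone (adjusted p = 0.00216), the fit without the low-count filter (adjusted p = 0.0939) and the fit without LM CD49a+ NK replicate 1 (1.17, SE 0.28, adjusted p = 0.0308). LM CD49a+ NK cells were at -1.02 against LM CD49a- NK cells (SE 0.64, adjusted p = 0.561) and at -1.41 against MFL NK cells (SE 0.65, adjusted p = 0.494, and 0.0387 without the low-count filter). Without LM CD49a+ NK replicate 1 these differences were -0.48 and -0.87, and with limma-voom -1.80 and -2.22, none past the threshold.

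Inpp5d (chr1:87547989-87648230), which encodes SHIP1, was separated by site: its values were higher in both LM populations, although 1 of the 3 comparisons of LM with MFL cells passed the test. MFL NK libraries had 388, 409 and 422 CPM, LM CD49a- NK libraries 517, 543 and 617 CPM, LM CD49a+ NK libraries 478, 588 and 595 CPM, and MFL ILC1 libraries 298, 353 and 373 CPM. Every LM library was above every MFL library, while the 2 LM populations overlapped. Markers of other liver cells split by site as well. The 8 hepatocyte genes summed to 18.7 to 141 CPM in MFL and 0 to 13.1 CPM in LM libraries, and the 5 Kupffer cell genes to 0.367 to 5.16 CPM in MFL libraries and 0 in every LM library. Their part in the Inpp5d levels was not tested. Inpp5d was higher in the LM CD49a+ NK population, at +0.70 against MFL ILC1 (SE 0.20, adjusted p = 0.0814). Against MFL NK cells it stood at +0.46 in the LM CD49a- (SE 0.20, adjusted p = 0.726) and +0.45 in the LM CD49a+ population (SE 0.20, adjusted p = 0.473), neither past the threshold. The call against MFL ILC1 was weak: 10 of 18 alternatives lost it, namely without any 1 of the 3 MFL NK libraries (adjusted p 0.118, 0.163 and 0.136 for replicates 1, 2 and 3), any 1 of the 3 MFL ILC1 libraries (0.160, 0.259 and 0.379), LM CD49a+ NK replicate 1 (0.221) or 3 (0.211), the low-count filter (0.153) or the other 2 groups (0.103).

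Per kilobase of annotated exon, the order of the 3 phosphatases differed between the CD49a- and the CD49a+ populations. SHIP1 RNA led in all 4, with 50.2, 69.1, 68.5 and 42.2 CPM per kb in MFL NK, LM CD49a- NK, LM CD49a+ NK and MFL ILC1. Inpp4b had 0.270, 0.105, 5.16 and 27.1 CPM per kb in the same order and Inpp4a 4.92, 3.76, 1.85 and 11.2. Inpp4a was the more abundant 4-phosphatase in both CD49a- populations and Inpp4b in both CD49a+ populations, with a ratio of means of 2.79 to Inpp4a in LM CD49a+ NK cells and 2.42 in MFL ILC1. Without LM CD49a+ NK replicate 1, the library with 13 counts of Inpp4a, the former ratio was 1.61, below that of MFL ILC1, and without replicate 2 or 3 it was 3.84 or 4.04. The order of the ratios in the 2 CD49a+ populations thus rested on 1 library. Exon lengths merge all annotated exons of a gene.

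**Figure D2:**
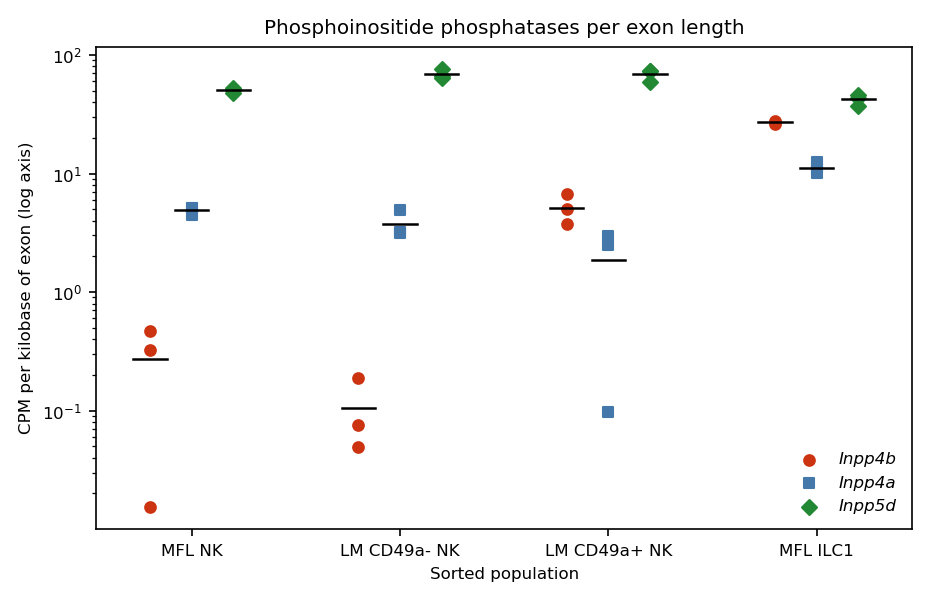
CPM per kilobase of exon (vertical axis, log scale) of Inpp4b, Inpp4a and Inpp5d in the 4 lymphocyte populations (horizontal axis). Points are libraries and lines means of 3; Inpp4b lies under Inpp4a in both CD49a- groups and above it in LM CD49a+ NK cells (5.16 against 1.85) and MFL ILC1 (27.1 against 11.2).

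The catalytic subunits showed no difference past the test. Pik3cd, for p110delta, had 532, 630 and 668 CPM in MFL NK, 535, 537 and 543 CPM in LM CD49a- NK, 513, 544 and 584 CPM in LM CD49a+ NK and 580, 787 and 871 CPM in MFL ILC1 libraries. MFL ILC1 were at +0.29 against MFL NK cells (SE 0.21, adjusted p = 1, overlapping), and LM CD49a+ NK cells at -0.45 against MFL ILC1 (SE 0.21, adjusted p = 0.336), and both passed only with limma-voom quality weights (adjusted p = 0.0126 and 0.0582). Pik3cg, for p110gamma, ranged from 108 to 257 CPM over all 12 libraries, and both extremes were LM CD49a- NK libraries. Its log2 fold changes lay between -0.14 and 0.25 in the 5 comparisons, with SE of 0.29.

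Pik3r1 (chr13:101817071-101904725), for p85alpha, had the lowest levels in MFL ILC1. It had 816, 938 and 1038 CPM in MFL NK, 836, 1077 and 1297 CPM in LM CD49a- NK, 530, 688 and 1143 CPM in LM CD49a+ NK, and 486, 499 and 526 CPM in MFL ILC1 libraries. The MFL ILC1 libraries lay below all others, and those of LM CD49a+ NK cells spread from just above them into the NK range. MFL ILC1 were at -0.89 against MFL NK cells (SE 0.26), with an adjusted p of 0.114 that missed the threshold, and 9 of 18 alternatives passed it, among them DESeq2 (0.0426), the fit of these 2 groups alone (0.00459) and the fits without LM CD49a- NK replicate 2 (0.0676) or 3 (0.0923) or LM CD49a+ NK replicate 2 (0.0727) or 3 (0.0365). LM CD49a+ NK cells were at -0.44 against LM CD49a- NK cells (SE 0.26, adjusted p = 0.533).

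Pik3ip1, whose product inhibits p110, was scarce and scattered, from 0 CPM in 1 LM CD49a+ NK library to 41.1 CPM in 1 MFL ILC1 library. Its group means were 19.1 ± 14.2, 10.4 ± 10.9, 4.65 ± 5.39 and 24.6 ± 14.3 CPM in MFL NK, LM CD49a- NK, LM CD49a+ NK and MFL ILC1 (SD, n = 3). With LM CD49a+ NK cells at -2.40 against MFL ILC1 (SE 1.35, adjusted p = 0.481), no difference was detectable with this spread. Pik3ap1, for the adaptor BCAP, had means of 289 ± 9.70, 314 ± 15.9, 303 ± 32.2 and 239 ± 18.2 CPM in the same order, and every MFL ILC1 library (227 to 260 CPM) was below every other, at -0.28 against MFL NK cells (SE 0.19, adjusted p = 1). Akt1, for the main kinase recruited by the lipid, had 174 ± 20.3, 129 ± 16.3, 151 ± 28.1 and 155 ± 17.7 CPM. Its lowest difference was that of LM CD49a- against MFL NK cells, -0.43 (SE 0.23, adjusted p = 0.765), where the groups did not overlap.

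**Figure D3:**
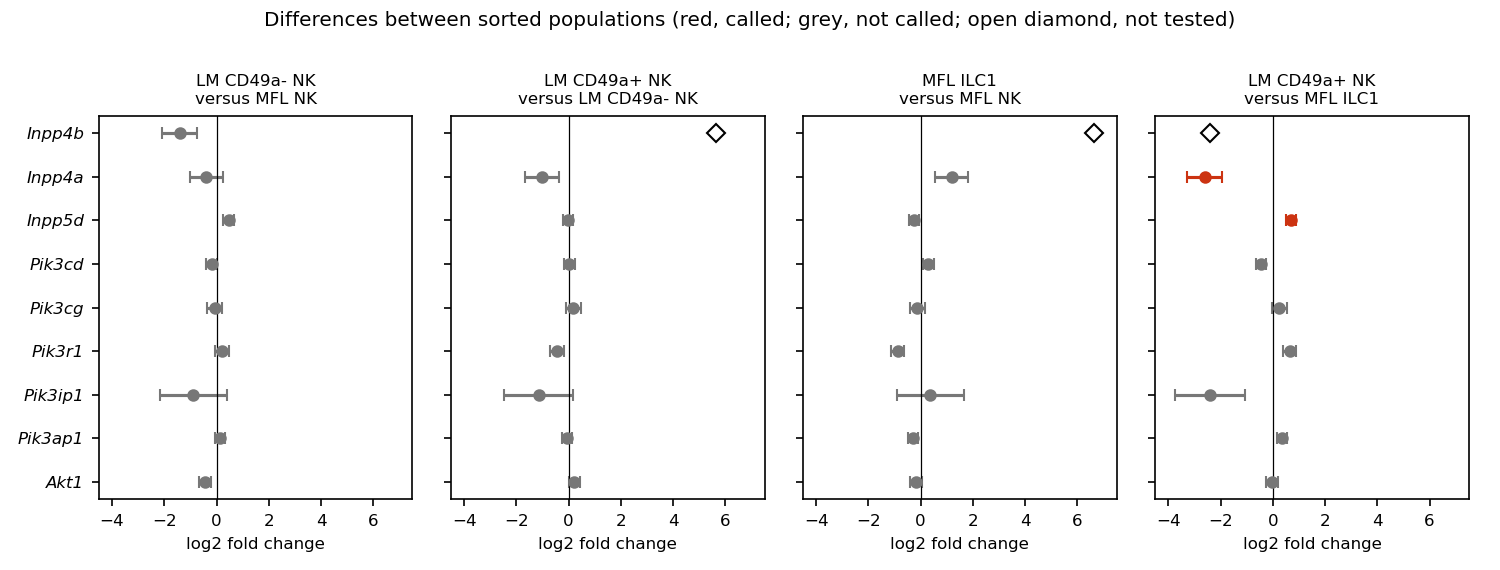
Log2 fold changes (horizontal axes, first against second group) of the 9 genes with SE bars in 4 lymphocyte comparisons. Red points passed the test and grey points did not, and open diamonds are Inpp4b values given without a test; red points appear in the comparison of LM CD49a+ NK cells with MFL ILC1 for Inpp4a (-2.60) and Inpp5d (0.70).

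Counted together, members passed the test in 1 of the 5 lymphocyte comparisons. Between LM CD49a- and MFL NK cells 0 of 9 passed, where 0.0662% of all tested genes were called higher and 0.00736% lower, and 3 had groups that did not overlap, against 16.2% of all genes. For LM CD49a+ against LM CD49a- cells 0 of the 8 tested passed (background 0.0662% higher and 0.0736% lower), and 2 of 9 did not overlap (9.82% of all genes). Between LM CD49a+ NK and MFL NK cells 0 of 8 passed (0.427% higher, 0.221% lower), and 3 of 9 did not overlap (20.1%). Between MFL ILC1 and MFL NK cells 0 of 8 passed (1.38% higher, 1.68% lower), and 5 of 9 did not overlap (25.3%). For LM CD49a+ cells against MFL ILC1, Inpp5d was higher and Inpp4a lower, 2 of the 8 tested, against 2.29% higher and 1.29% lower among all genes, and 6 of 9 did not overlap (23.2%). The count of 2 fell to 0 without any 1 MFL ILC1 library and to 1 without LM CD49a+ NK replicate 1 or 3 or any 1 MFL NK library. The median log2 fold change of the 9 members in these comparisons was -0.18, -0.01, -0.16, -0.14 and -0.04, beside -0.09, 0.01, -0.04, 0.01 and -0.07 over all tested genes. In the 5 comparisons, in the order above, 1, 0, 2, 1 and 4 of the tested members had an unadjusted p under 0.05 by edgeR, beside 6.72%, 11.6%, 9.74%, 8.37% and 14.1% of all genes. DESeq2 called 0, 0, 0, 1 and 2 members, beside 1.26%, 4.08%, 2.86%, 5.12% and 7.75% of all genes. With limma-voom 0, 0, 0, 5 and 3 members were called, beside 0.765%, 0%, 2.26%, 19.5% and 6.88%. The counts of no overlap include Inpp4b, which was chosen for it in all but the comparison of the 2 CD49a- populations.

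The other genes of the pathway were read from 8 lists of 111 genes without the members, of which 103 were tested in the lymphocytes. In the 3 comparisons among NK populations 0 of 103 passed edgeR's test, with 10 (LM CD49a- against MFL), 10 (LM CD49a+ against LM CD49a-) and 15 (LM CD49a+ against MFL) at an unadjusted p under 0.05. These were 9.71%, 9.71% and 14.6% of the list genes, beside 6.72%, 11.6% and 9.74% of all genes. In MFL ILC1 against MFL NK cells 3 were higher and 8 lower (2.91% and 7.77% of the list genes), beside 1.38% and 1.68% of all genes. In LM CD49a+ cells against MFL ILC1 10 were higher and 2 lower (9.71% and 1.94%), beside 2.29% and 1.29% of all genes. These 2 comparisons share the MFL ILC1 libraries. Among 19 phosphoinositide phosphatases and 4 class II and III PI3K genes none passed in any of the 5. Becn1, a partner of the class III kinase, had means of 113 ± 17.4, 97.4 ± 32.2, 109 ± 32.6 and 91.7 ± 2.80 CPM in MFL NK, LM CD49a- NK, LM CD49a+ NK and MFL ILC1.

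Among 6 other class I subunits, Pik3r5, which encodes the p101 partner of p110gamma, averaged 425 ± 74.97 CPM in MFL NK cells, was lower in MFL ILC1 (131 ± 26.1 CPM, log2 fold change -1.69, adjusted p = 0.00417) and was higher again in LM CD49a+ NK cells (321 ± 134 CPM, 1.29 against MFL ILC1, adjusted p = 0.0343). Of 13 adaptors, only Gab2 passed, with 5.61 ± 0.984 CPM for MFL ILC1 and 44.1 ± 5.03 CPM for MFL NK cells (-2.97, adjusted p = 0.00518). Of 13 genes around AKT, Sgk1, a kinase related to AKT, was lower in MFL ILC1 (5.64 ± 1.68 CPM) than the 120 ± 23.5 CPM of MFL NK cells (-4.41, adjusted p = 0.00461). It had 12.3, 17.4 and 137 CPM in LM CD49a+ NK cells, above MFL ILC1 (3.29, adjusted p = 0.0330). Of 17 proteins that bind these lipids, Raph1, for the PI(3,4)P2 binder lamellipodin, had 20.7 ± 3.73 CPM in MFL ILC1, less than MFL NK cells (67.8 ± 10.7 CPM, adjusted p = 0.0115) and LM CD49a+ NK cells (48.4 ± 7.21 CPM, adjusted p = 0.0936). Plekha2, for TAPP2, another PI(3,4)P2 binder, had 317 ± 94.5 CPM in LM CD49a+ NK cells, above the 163 ± 3.39 CPM of MFL ILC1 (adjusted p = 0.0328). It had 402, 320 and 339 CPM in LM CD49a- NK and 222, 181 and 172 CPM in MFL NK libraries. Every LM library of Plekha2 was thus above every MFL library, as for Inpp5d.

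The 16 genes of FOXO factors and genes linked to them held the most calls and moved in both directions. Between MFL ILC1 and MFL NK cells 3 were called higher and 3 lower, beside 1.38% and 1.68% of all genes. Il7r is also among the ILC1 genes above. In MFL ILC1 against MFL NK cells, the factor Foxo3 (385 ± 68.9 against 161 ± 32.5 CPM, adjusted p = 0.0195), the stress sensor Sesn3 (292 ± 23.9 against 154 ± 14.5 CPM, adjusted p = 0.0213) and the IL-7 receptor gene Il7r (117 ± 57.5 against 6.06 ± 0.119 CPM, adjusted p = 0.000241) were higher. The factor Klf2 (101 ± 34.3 against 1086 ± 192 CPM, adjusted p = 4.01e-05) and its target in lymphocyte exit, S1pr1 (0.222 ± 0.324 against 39.96 ± 7.81 CPM, adjusted p = 6.47e-05), were lower.

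Against MFL ILC1, LM CD49a+ NK cells had 6 calls in this list, 4 higher and 2 lower, beside 2.29% and 1.29% of all genes. Foxo3 (144 ± 57.1 CPM, adjusted p = 0.0101) and Il7r (20.97 ± 13.2 CPM, adjusted p = 0.0166) were lower, and Sesn3 missed the threshold (180 ± 26.7 CPM, adjusted p = 0.108). Klf2 (387 ± 126 CPM, adjusted p = 0.00754), S1pr1 (47.2 ± 10.6 CPM, adjusted p = 9.69e-05) and Foxo1 (212 ± 73.4 against 108 ± 13.7 CPM, adjusted p = 0.0698) were higher. In the mTORC1 branch, the amino acid transporter Slc7a5 was low in MFL ILC1 (5.86 ± 2.80 CPM), below MFL NK (24.7 ± 4.95 CPM, adjusted p = 0.0715) and LM CD49a+ NK cells (35.3 ± 2.85 CPM, adjusted p = 0.0194). The transferrin receptor Tfrc had 56.7 ± 13.6 CPM in LM CD49a+ NK cells and 18.03 ± 3.06 CPM in MFL ILC1 (adjusted p = 0.0478). The medians of the 8 lists in these 2 comparisons lay between -0.24 and 0.10 for MFL ILC1 against MFL NK cells and between -0.63 (class I subunits) and 0.29 (FOXO) for LM CD49a+ NK cells against MFL ILC1.

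**Figure D4:**
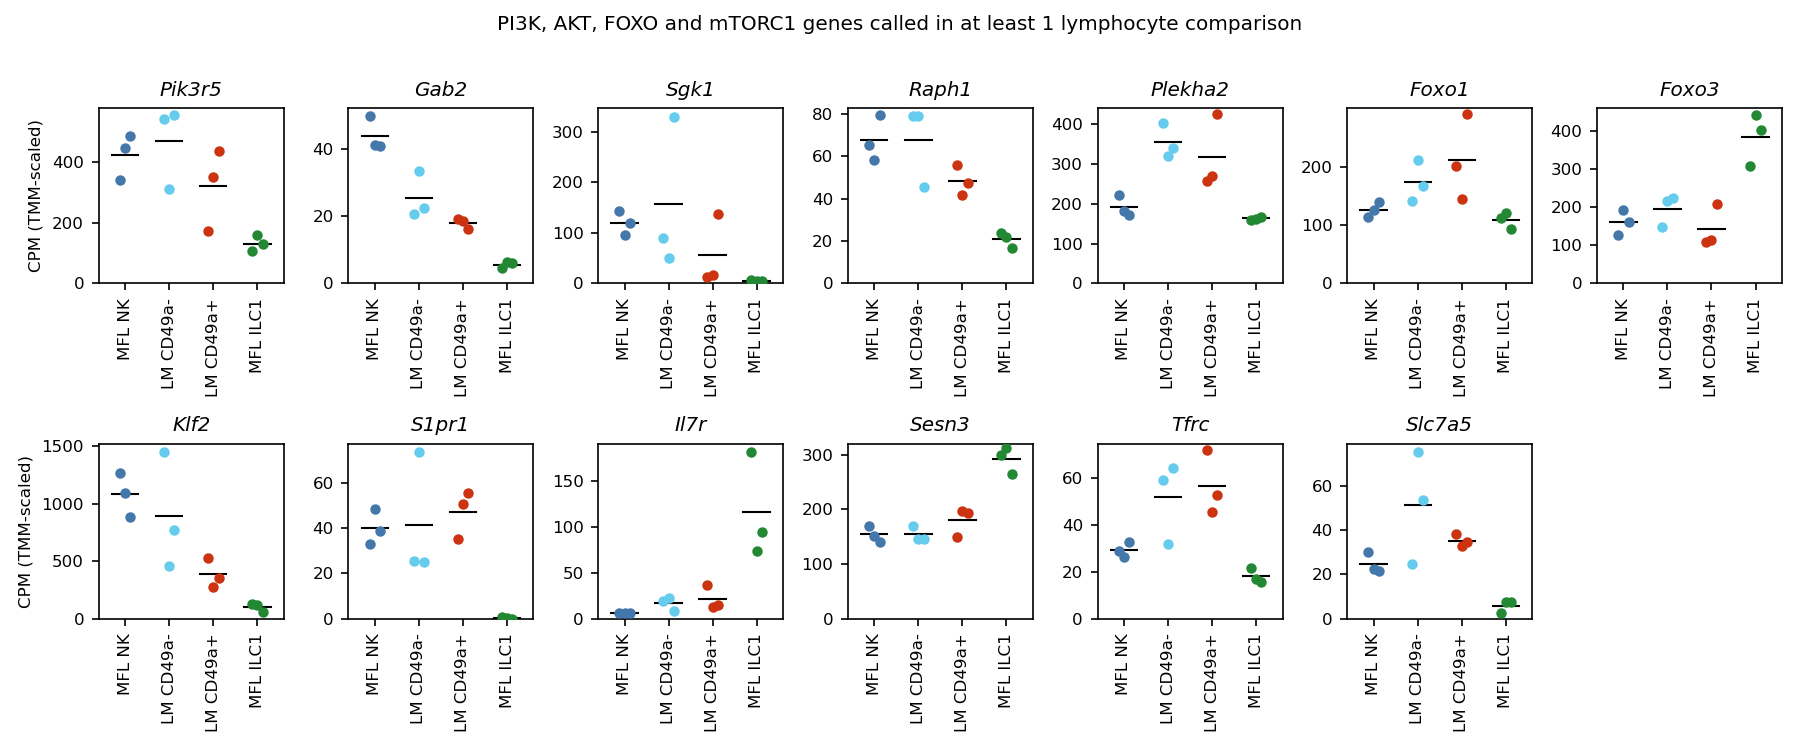
CPM (vertical axes, linear from 0) of 13 pathway genes called in at least 1 lymphocyte comparison, by population. Points are libraries and lines means of 3; Klf2 and S1pr1 are lowest in MFL ILC1 and Foxo3, Il7r and Sesn3 highest, with LM CD49a+ NK libraries near the NK range for S1pr1 and Foxo3.

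Among 9774 genes with a mean of at least 5 CPM, the patterns most like that of Inpp4b over the 12 libraries, by Pearson's r of log2 CPM, were those of Zfp512 (0.967), 2900026A02Rik (0.947), Apol7e (0.946), Stk39 (0.946) and Camk4 (0.932), and the most opposite those of Plek (-0.958), Agpat3 (-0.956) and Cdk14 (-0.950). Camk4, a calcium-dependent kinase, had means of 0.523, 0.0263, 4.62 and 22.5 CPM in MFL NK, LM CD49a- NK, LM CD49a+ NK and MFL ILC1, and Plek, for the phosphoinositide binder pleckstrin, 708, 742, 381 and 198 CPM. Of the other members Pik3cd was nearest to Inpp4b (r = 0.55) and Pik3r1 farthest (r = -0.79), and Inpp4a had an r of 0.06. These values describe 12 points in 4 clusters and were not tested.

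In MAMs, a separate experiment that the choice of Inpp4b did not use, Inpp4b was higher in the F4/80hi subset. The F4/80int libraries had 4.02, 5.81 and 6.66 CPM and the F4/80hi libraries 23.1, 28.2 and 38.8 CPM, without overlap. The log2 fold change was 2.44 (SE 0.24, edgeR quasi-likelihood adjusted p = 8.88e-05), and the call held in all 11 alternatives (2.21 to 2.60). Inpp4a did not pass, with 37.5 ± 4.06 CPM in F4/80hi and 42.4 ± 3.67 CPM in F4/80int MAMs (-0.18, SE 0.11, adjusted p = 0.211). Per kilobase Inpp4b had 1.88 and Inpp4a 2.90 CPM in F4/80hi MAMs, a ratio of 0.648, against 0.105 in F4/80int MAMs. MAM libraries were made with another kit and scaled apart from the lymphocytes, so levels are not compared between the 2 experiments.

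**Figure D5:**
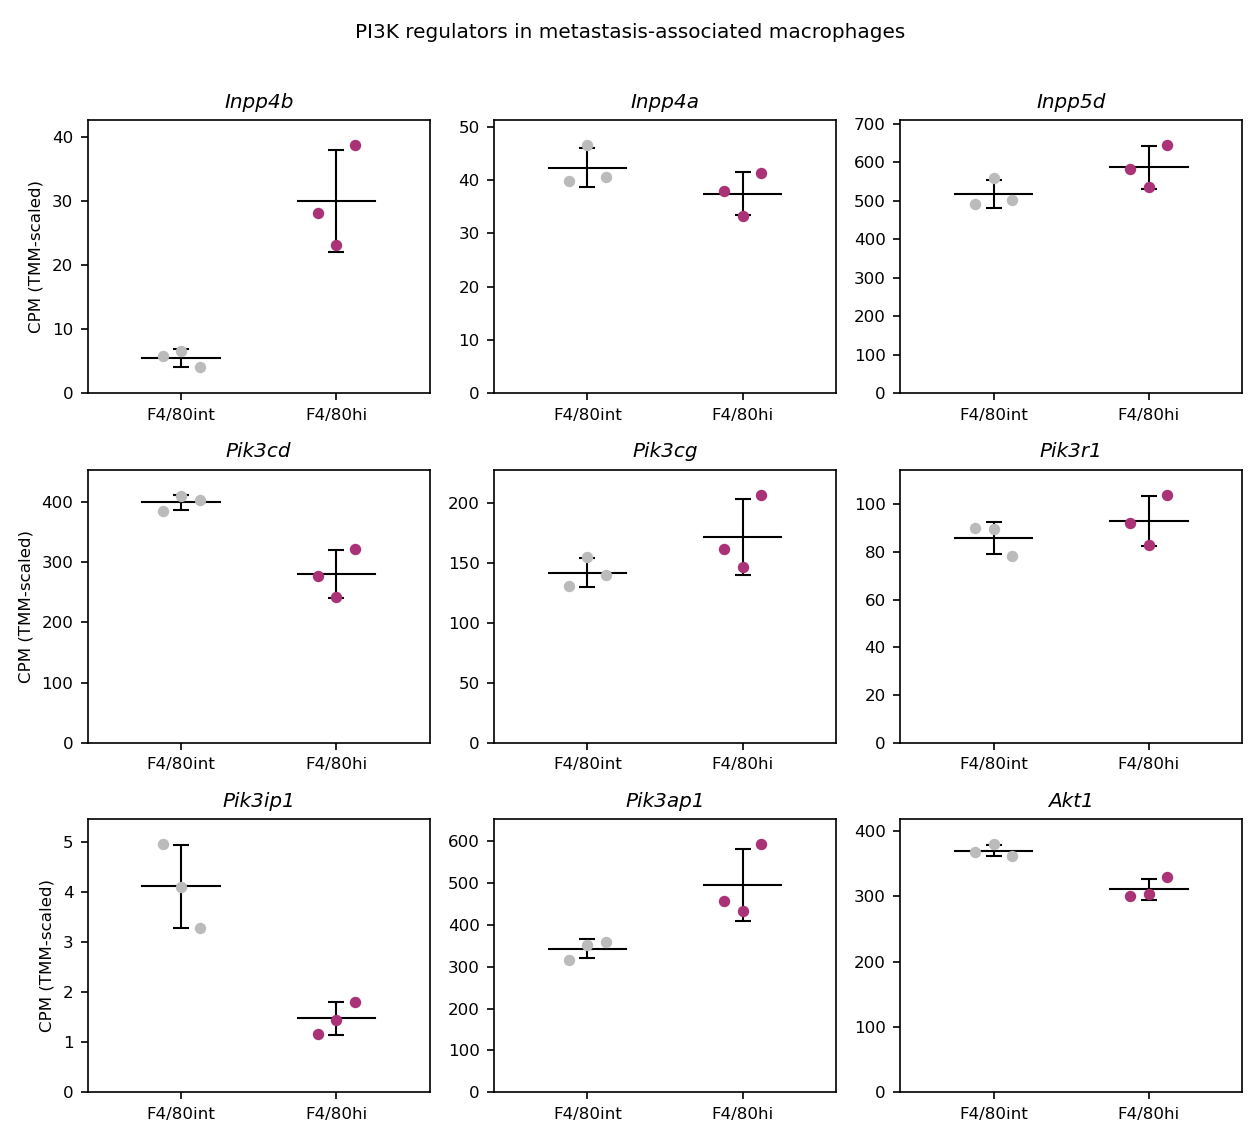
CPM of the 9 PI3K regulators (vertical axes, linear from 0, scaled per gene) in 3 F4/80int and 3 F4/80hi MAM libraries. Points are libraries, lines means and bars SD; Inpp4b lies between 4.02 and 6.66 CPM in F4/80int and between 23.1 and 38.8 CPM in F4/80hi MAMs, and Pik3cd and Pik3ip1 are lower in F4/80hi MAMs.

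Pik3ap1 was also higher in F4/80hi MAMs, with 432, 457 and 592 CPM against 316, 352 and 358 CPM (0.53, SE 0.13, adjusted p = 0.0102). Pik3cd was lower, with 243, 277 and 322 CPM against 386, 404 and 410 CPM (-0.51, SE 0.11, adjusted p = 0.00601), as was Pik3ip1, with 1.17, 1.45 and 1.82 CPM against 3.29, 4.10 and 4.96 CPM (-1.47, SE 0.27, adjusted p = 0.00242). Akt1 was lower by 0.25 (SE 0.08, adjusted p = 0.0318), with 311 ± 15.8 against 370 ± 8.97 CPM, and missed the threshold without F4/80hi replicate 1 (adjusted p = 0.124). Inpp5d (0.18, adjusted p = 0.178), Pik3cg (0.28, adjusted p = 0.128) and Pik3r1 (0.12, adjusted p = 0.403) did not pass, and Inpp5d and Pik3cg passed without F4/80hi replicate 2 (adjusted p = 0.0956 and 0.0505).

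With 2 members higher and 3 lower, the 5 of 9 called in MAMs were near the background, since 27.8% of all genes were called higher and 27.1% lower, and 5 of 9 did not overlap against 58.4%. The median of the members was 0.12, beside 0.01 over all genes. Of the 108 other pathway genes 17 were higher and 49 lower. Among those named above, Foxo1 (15.3 ± 1.49 against 31.8 ± 2.25 CPM, adjusted p = 0.000104), Il7r (4.36 ± 1.48 against 41.9 ± 11.7 CPM, adjusted p = 4.95e-05) and Pik3r5 (140 ± 19.9 against 220 ± 13.4 CPM, adjusted p = 0.00200) were lower in F4/80hi MAMs and S1pr1 higher (10.7 ± 2.35 against 3.36 ± 1.27 CPM, adjusted p = 0.00218). Markers of other cells moved with the subsets. The 6 dendritic cell genes summed to 8.43 to 11.2 CPM in F4/80hi and 230 to 347 CPM in F4/80int MAMs. The 10 macrophage and monocyte genes summed to 18648 to 24141 CPM and 9809 to 12343 CPM in that order. For the 5 Kupffer cell genes the sums were 69.6 to 100.02 CPM and 12.5 to 18.9 CPM. Most of the F4/80hi sum came from Folr2, with means of 79.6 CPM in F4/80hi and 4.70 CPM in F4/80int MAMs. Timd4 went the other way, with means of 0.368 and 8.41 CPM. Clec4f, Cd5l and Vsig4 had higher means in F4/80hi MAMs, of at most 4.67 CPM. The 2 of 6 tumor epithelium genes in the table summed to 8.30 to 11.8 CPM and 197 to 281 CPM, and the 6 of 7 ILC1 genes, among which Inpp4b is not counted, to 25.9 to 34.8 CPM and 91.8 to 111 CPM, so that the ILC1 genes were lower in the subset where Inpp4b was higher. None of these genes was at 0 in all libraries of a subset, and the part of other cells in the differences was not tested.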

How the data were processed

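Bulk RNA-seq of 18 sorted libraries was analyzed. Per the labels and the methods of the study, stranded libraries (total RNA for the lymphocytes, poly(A) RNA for the MAMs) were made. Reads were quantified with Salmon 1.5.0 for the lymphocytes, after trimming with Trim Galore, against GENCODE M27 transcripts of GRCm39, and summed to genes with tximport. For the MAMs the submitters' processing notes name Salmon 1.10.0 and GRCm39, and other settings are not given in the sources used here. The values deposited by the authors are estimated counts, whole numbers without normalization. The MAM table holds no gene with fewer than 37 counts in all. Estimated counts divide reads shared by paralogs, and the kit keeps strand. Gene names and GRCm39 positions came from the GENCODE vM39 annotation, which held 53700 of 54309 lymphocyte IDs and 13726 of 13759 MAM IDs.

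Libraries were scaled by TMM and tested with edgeR's quasi-likelihood test (edgeR 4.0.16, limma 3.58.1, DESeq2 1.42.0, R 4.3.3; plots with matplotlib 3.10.9), after filterByExpr, in 1 fit of the 12 lymphocyte and 1 of the 6 MAM libraries. A gene was called at a Benjamini-Hochberg adjusted p under 0.1 over all genes, the FDR used in the study. SE are log2 fold changes divided by the root of F. Every adjusted p in the report is from this test unless another is named. The p-values measure the spread between libraries, which are pooled sorts for the lymphocytes and of unstated pooling for the MAMs. In a simulation of the 12 lymphocyte libraries with 12919 genes, each gene had its mean level and spread over all 12. Genes changed by 3 on the log2 scale in MFL ILC1 were taken only from those above the median level. Against MFL NK cells 91% of these were called, and 7.61% of the calls were unchanged genes. Changes of less abundant genes and smaller changes were not simulated. The comparisons of LM cells were not simulated.

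The members and gene lists were chosen with earlier results of these data known, so no list is independent evidence. Named genes are the 9 members, the list genes called in a lymphocyte comparison (or the most abundant of a list without calls), and the 5 most like and 3 most unlike Inpp4b at a mean of at least 5 CPM with a prior count of 2, except that 2 list genes are counted but not reported here. Alternatives were DESeq2, RLE scaling, no filter, limma-voom with quality weights, a replicate block, fits of 2 groups and leaving out each library. The single-cell and human data of the study were not analysed here.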

Additional observations from a re-analysis of the deposited data

Results flagged for a closer look

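Inpp4a stood out because its libraries moved in opposite directions with CD49a at the 2 sites. All 3 LM CD49a+ NK libraries lay below all 3 LM CD49a- NK libraries (log2 fold change -1.02), and all 3 MFL ILC1 libraries above all 3 MFL NK libraries (1.19). The difference between these differences was -2.21 on the log2 scale (edgeR interaction term, unadjusted p = 0.0256, adjusted p = 0.502) and did not pass the threshold over all genes. Without LM CD49a+ NK replicate 1, which held 13 counts of Inpp4a, it was -1.65 (adjusted p = 0.123), and without the low-count filter -2.24 (adjusted p = 0.00978). The populations compared at the 2 sites also differ in CD49b. Inpp4a was flagged on these same libraries, so the interaction p is no independent support. By the same edgeR test, 1183 of the 13594 genes had an unadjusted interaction p under 0.05. How many of all genes split in opposite directions without overlap was not counted.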

How the results depend on the processing

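All 18 alternatives of the lymphocytes and 11 of the MAMs were planned and run. Of the tested values of single members under them, 919 kept their direction and side of the threshold, 24 gained and 15 lost the call, and 15 turned sign, all of them not called. Of the 89 untested Inpp4b values, 88 moved by less than 1 SE. Leaving out LM CD49a- NK replicate 1 moved the untested Inpp4b difference of LM CD49a+ from LM CD49a- NK cells from 5.65 to 6.37. With 3 libraries a group, of which those from LM spread most, small differences were not detectable. The ratio of Inpp4b to Inpp4a without each library was added after seeing the data. The causes of the changes below were not tested.

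Genes called between LM CD49a- and MFL NK cells numbered 10, and 161 with DESeq2, 158 without the low-count filter, 104 with limma-voom, 3 in the fit of 2 groups and 1 to 110 with 1 library left out, with 1 member (Inpp4b) called without the filter. For LM CD49a+ against LM CD49a- NK cells the 19 became 543, 200, 0 (limma-voom, 746 genes at an unadjusted p under 0.05) and 3 under the same settings and 5 to 267 with a library left out. For LM CD49a+ NK against MFL NK cells the 88 became 365 with DESeq2, 371 without the filter (with 1 member, Inpp4a), 307 with limma-voom and 26 to 168. For MFL ILC1 against MFL NK cells the 416 became 667 with DESeq2, 2645 with limma-voom, 1228 in the fit of 2 groups and 268 to 562, and the 0 members called became 1, 5 and 2, with 2 without the filter, 1 with the replicate block and 0 to 1 with a library left out. For LM CD49a+ NK cells against MFL ILC1 the 486 became 1010 with DESeq2, 774 without the filter, 935 with limma-voom and 257 to 708, and the 2 members became 1 without the filter, 0 in the fit of 2 groups and 0 to 2 with a library left out. Genes called for the interaction of CD49a and site numbered 140, and 349 with DESeq2, 264 without the filter (with 1 member, Inpp4a) and 75 to 256. Of the counts with 1 library left out, the highest came without LM CD49a- NK replicate 3 (110, 267 and 256) or replicate 2 (168, 562 and 708). The lowest came without MFL NK replicate 1 (1, 26 and 268), LM CD49a+ NK replicate 1 (5), MFL ILC1 replicate 3 (257) or MFL NK replicate 2 (75). Leaving out MFL NK replicate 3 gave the same 1 and 26. In MAMs, 5 members became 7 with limma-voom and 4 to 7 with a library left out.

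Some log2 fold changes turned sign. In LM CD49a+ against LM CD49a- NK cells, Inpp5d was at 0.00304 in the fit of 2 groups and ranged from -0.0808 to 0.0817 with a library left out, Pik3cg from -0.0350 to 0.69, Pik3cd from -0.0264 to 0.0549, Pik3ap1 from -0.12 to 0.0318 and Pik3ip1 from -2.60 to 0.0384. Pik3cg ranged from -0.59 to 0.14 in LM CD49a- against MFL NK cells, Pik3ap1 from -0.00147 to 0.15 in LM CD49a+ against MFL NK cells, and Pik3ip1 from -0.23 to 1.16 in MFL ILC1 against MFL NK cells. Akt1 in LM CD49a+ NK cells against MFL ILC1 was at 0.0741 with limma-voom and ranged from -0.16 to 0.0984.

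The labels do not tie a replicate number to a sort. Deviations from group means were weakly correlated between libraries of equal number (r of -0.05 to 0.10 over 18 pairs of lymphocyte libraries and -0.01 to 0.17 over 3 pairs of MAM libraries), so the number was not taken to pair them. With the replicate block, 445 genes were called between MFL ILC1 and MFL NK cells, among them Pik3r1 (adjusted p = 0.0676), and 484 for LM CD49a+ NK cells against MFL ILC1. No other member gained or lost a call under the block.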
